A study of Mus musculus with 6 samples.

Results

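The CCN genes encode a small family of secreted proteins of the extracellular matrix, and their RNA was followed in PA6 stromal cells exposed to FGF2 or BMP4. The genes were taken by name, as every probe that the array's annotation assigns to CYR61 (now Ccn1), CTGF (Ccn2), NOV (Ccn3), WISP1 (Ccn4) or WISP2 (Ccn5), and the family was selected on its measured signals, since its intensities on these -GFs, FGF2 and BMP4 arrays were known when it was chosen. They hold 10 of the 45281 probes, namely 3 for CYR61, 2 each for CTGF, NOV and WISP1, and 1 for WISP2. A probe was retained when its detection p-value, which sets its signal against the negative control beads of the same array, fell below 0.05 on the pair of arrays of any 1 group. By that rule 7 of the 10 probes were retained, which represent 4 of the 5 genes. Neither NOV probe was retained.

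PA6 is an established murine stromal line, and every array of the study comes from this line, grown to confluence and then kept for 3 h in serum-free medium. The untreated control received no growth factors and is written -GFs, the FGF2 group received recombinant FGF2 at 20 ng/ml, and the BMP4 group received recombinant BMP4, for which the labels give 10 ng/ml. The methods describing the co-cultures state a lower BMP4 dose, so the dose is uncertain. Each group had 2 biological replicates with 1 array each, and each replicate consisted of 1 well per condition, so that arrays with the same replicate number belong together.

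CCN proteins are built from modules that resemble an IGF-binding domain, a von Willebrand factor C domain, a thrombospondin repeat and a cystine knot at the carboxyl terminus, and WISP2 lacks the cystine knot. They act outside the cell, where they bind integrins, heparan sulphate proteoglycans and growth factors and alter adhesion, migration and the response to other ligands. CYR61 and CTGF are immediate early genes of serum and growth factor stimulation and textbook targets of YAP/TAZ with TEAD factors, of SRF and, for CTGF above all, of TGFβ, while WISP1 and WISP2 were first described as genes induced by WNT1.

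The proximal promoter of CYR61 is shown with the motifs found in it, as the only promoter of the family in the table used. The sequence is the RefSeq one of mouse build GRCm38.p6, chr3:145649986-145650235, minus strand, the 250 bases that end just before the annotated transcription start of Ccn1. Capitals mark, in order, a TEAD motif, a BMP SMAD motif and a TATA motif.
CYR61: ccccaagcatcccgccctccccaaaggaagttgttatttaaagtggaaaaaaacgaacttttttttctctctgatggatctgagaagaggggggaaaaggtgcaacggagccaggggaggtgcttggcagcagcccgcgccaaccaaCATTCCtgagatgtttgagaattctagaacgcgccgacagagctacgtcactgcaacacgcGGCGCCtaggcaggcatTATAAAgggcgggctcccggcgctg
The letters were searched on both strands. The TEAD motif CATTCC begins 103 bases before the start and was held by 12.6% of 32851 mouse promoter windows of this length. The BMP SMAD motif GGCGCC begins 42 bases before it (9.59% of windows), and the TATA motif TATAAA 25 bases before it (12.4%). The AP-1 motif TGANTCA (6.75% of windows) and the CArG box bound by SRF (1.47%) had no match in this window, and none of the 3 matches overlaps another. A match describes the letters and not a bound site.

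All 8 stromal markers looked for (COL1A1, COL1A2, COL3A1, FN1, VCAM1, CXCL12, PDGFRB and THY1) were detected on all 6 arrays. The haematopoietic markers PTPRC, CD68, EMR1 and ITGAM, the endothelial markers PECAM1, CDH5 and TIE1, the epithelial markers KRT8, KRT18 and TACSTD1, and the ES cell markers NANOG, SOX2 and ZFP42 were detected on none, whereas LYZ2, TEK, CDH1 and POU5F1 were detected on all 6. The remaining endothelial marker, KDR, was detected on some arrays but not on all 6. The median intensity per array lay between 153.4 and 168.1, and between 15509 and 16459 probes were detected. Genes were tested with limma on log2 intensities after cubic spline normalization, and a gene was called when its absolute log2 fold change exceeded 1 and its Benjamini-Hochberg adjusted p over all 11872 genes was under 0.1. For the CCN genes themselves the fold changes, their standard errors and the calls are a description, since the genes were chosen with these signals known.

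Exposure to FGF2 for 3 h addressed how the stromal cells respond to the factor. CYR61, CTGF and WISP1 all had higher signals with FGF2, with fitted log2 fold changes between 1.52 and 1.62, while WISP2 had overlapping signals and NOV stayed undetected. CTGF and WISP1, detected on all 6 arrays, were called up, as was CYR61, whose representing probe passed the detection filter through the FGF2 arrays alone and so had to be high there. The count of 3 of the 4 tested genes, printed beside the 2.28% of all 11872 genes called up, is therefore a description only, and with detection asked on all 6 arrays it was 2, CTGF and WISP1.

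CYR61, a ligand of αv integrins that acts on adhesion and angiogenesis, was followed with 3 probes. On the probe ILMN_2794645, which represents the gene, the deposited intensity was 140.6 and 125.2 in -GFs, 369.3 and 428.9 with FGF2, and 135 and 234 with BMP4. The FGF2 arrays were the highest of the 6, and the probe was detected on both of them, on BMP4 replicate 2 only, and on neither -GFs array. Normalized log2 intensity went from 7.05 ± 0.06 (SD, n = 2) in -GFs to 8.68 ± 0.21 with FGF2, a fitted difference of 1.62 (SE 0.25). As the -GFs signal was not above background, that value is no measure of the fold, and the change is given as at least 2.13-fold, from the lowest detected signal of each -GFs array.

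The other CYR61 probes differed by less. ILMN_2710253 read 189.4 and 161.4 in -GFs, 230.9 and 243.7 with FGF2, and 196.1 and 221.1 with BMP4. ILMN_1235571 read 131.7 and 138.7 in -GFs, 191.3 and 218.8 with FGF2, and 177.3 and 155.3 with BMP4. On both probes the FGF2 arrays were again above every other array, but the fitted difference from -GFs, where neither probe was detected, was 0.47 (SE 0.15) and 0.61 (SE 0.18), at least 1.25-fold and at least 1.07-fold. The direction was thus shared by the 3 probes and the size was not, and when the probes of each gene were averaged the log2 fold change of CYR61 was 0.90 and it was not called. 

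CTGF, a profibrotic matricellular protein that binds TGFβ and BMP ligands, was detected on all 6 arrays by both of its probes. Its brighter probe, ILMN_2909150, read 732.3 and 320.7 in -GFs, 1917.4 and 951.8 with FGF2, and 891.7 and 1078 with BMP4. The FGF2 arrays lay above both -GFs arrays, the nearest being FGF2 replicate 2 and -GFs replicate 1, at 9.96 and 9.31 on the normalized log2 scale. Normalized log2 intensity was 8.86 ± 0.63 (SD, n = 2) in -GFs and 10.43 ± 0.67 with FGF2, a log2 fold change of 1.57 (SE 0.38), or 2.98-fold, ranking 67. Within the replicates, whose levels differ widely, the difference was 1.60 in the first and 1.55 in the second.

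The second CTGF probe, ILMN_1238215, gave the same order of the groups. It read 542.4 and 308.7 in -GFs, 1211.5 and 615.9 with FGF2, and 655.9 and 776.2 with BMP4. Its log2 fold change with FGF2 was 1.17 (SE 0.31), with 1.36 and 0.99 within the replicates, and the FGF2 and -GFs arrays did not overlap.

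WISP1, a secreted protein known for promoting the proliferation of fibroblastic and osteoblastic cells, was detected on all 6 arrays by its retained probe. This probe, ILMN_2492264, read 1201.8 and 1245.6 in -GFs, 3071.6 and 3608.4 with FGF2, and 1083.5 and 1867.6 with BMP4. Both FGF2 arrays were far above the other 4. Normalized log2 intensity was 10.20 ± 0.23 (SD, n = 2) in -GFs and 11.72 ± 0.18 with FGF2, a log2 fold change of 1.52 (SE 0.24), or 2.87-fold, with 1.56 and 1.49 within the replicates. A second WISP1 probe, ILMN_2453775, was detected on 1 array (FGF2 replicate 2), where it read 210.5 against 128.7 to 182.3 elsewhere, and was not retained.

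WISP2, the member without the cystine knot and known from stromal and adipose precursor cells, was detected on all 6 arrays. Its only probe, ILMN_2486906, read 5311.7 and 1932.6 in -GFs, 3255.8 and 1661.2 with FGF2, and 5339.7 and 2152 with BMP4. The groups overlapped, and the replicates of each group stood further apart than the group means did. The log2 fold change with FGF2 was -0.38 (SE 0.60), and it was -0.55 and -0.22 within the replicates.

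NOV, known as a growth-restraining member of the family, was not detected on any array by either probe. ILMN_1231797 read between 139.4 and 188.3, with a lowest detection p-value of 0.0566 (FGF2 replicate 1), and ILMN_1259573 read between 120.5 and 147.3. These intensities are those of probes not above background, and no fold change is given for them.

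**Figure D1:**
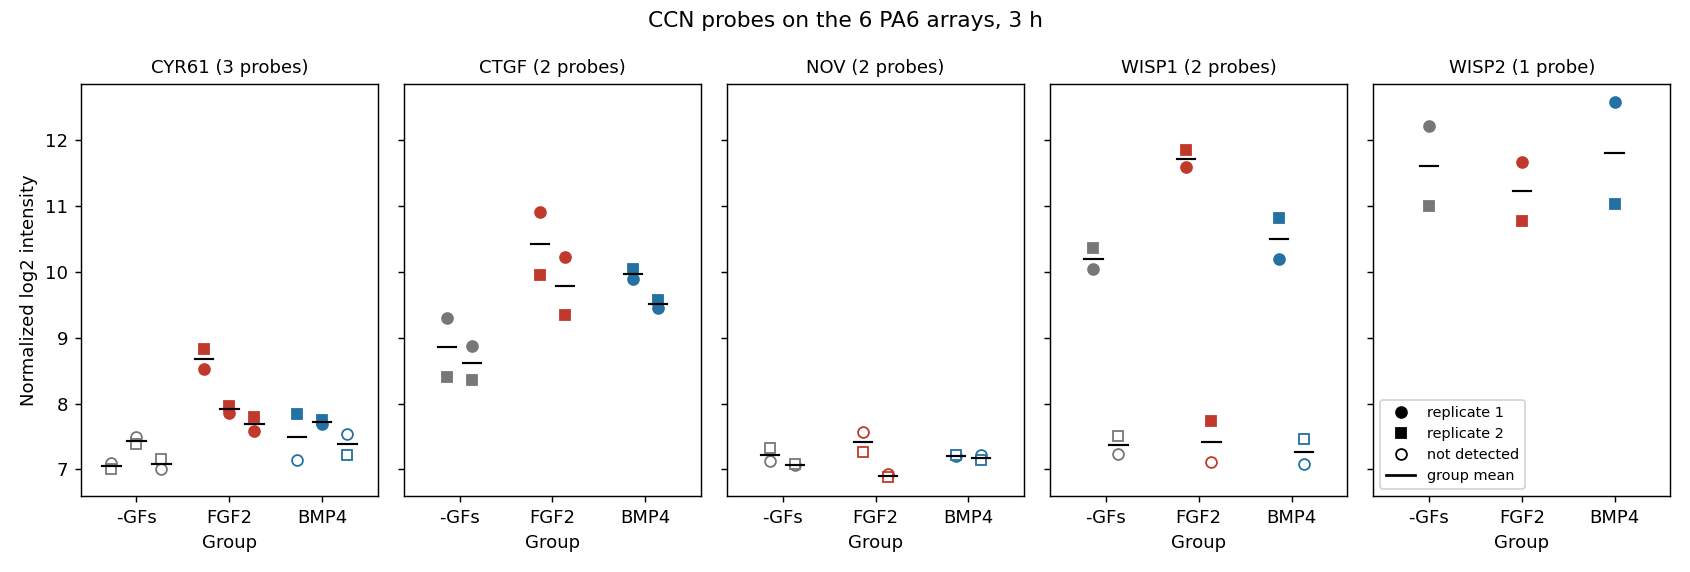
Normalized log2 intensity of each CCN probe on the 6 arrays (y axis), with the groups on the x axis, circles for replicate 1, squares for replicate 2, open symbols for arrays where the probe was not detected, and bars for the group mean; levels of different probes are not comparable. The FGF2 points of the representing CYR61 probe (8.53 and 8.83) and of WISP1 (11.60 and 11.85) lie above every other array of the same probe, and the WISP2 points separate by replicate.

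For CTGF and WISP1, and for CYR61 where the filter itself favours it, both FGF2 arrays exceeded both -GFs arrays, which 24.6% of all genes did, and nothing is read from that count. The calls rested on having both FGF2 arrays, since without FGF2 replicate 1, and equally without FGF2 replicate 2, none of the 3 was called, and without -GFs replicate 2 CTGF was not. With 1 array left out the log2 fold change stayed between 1.48 and 1.77 for CYR61, between 1.10 and 2.05 for CTGF and between 1.36 and 1.68 for WISP1. The summed intensity of the 8 stromal markers was 98420 and 80003 in -GFs, 70782 and 67285 with FGF2, and 80703 and 77657 with BMP4, and its part in the result was not tested. In such bulk RNA, fewer cells with a transcript and less of it per cell cannot be told apart.

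BMP4 for 3 h gave smaller differences. CTGF had the most, close to 2-fold, and CYR61, WISP1 and WISP2 had fitted log2 differences between 0.19 and 0.44. By limma 0 of the 4 tested CCN genes were called, beside 0.00842% of all genes, which is 1 gene, ID1. At an unadjusted limma p under 0.05 there was 1 of the 4, CTGF, beside 215 of all genes, or 1.81%. For the CCN genes that count is a description only.

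CTGF was higher on both BMP4 arrays than on either -GFs array. Its normalized log2 intensity was 9.90 and 10.05 with BMP4 against 9.31 and 8.41 in -GFs, so that the BMP4 arrays differed by far less than the -GFs arrays did. The log2 fold change was 1.11 (SE 0.38), or 2.16-fold, the 8th highest of 11872, and 0.59 and 1.64 within the replicates. The second CTGF probe gave 0.90 (SE 0.31), with 0.58 and 1.22. Once replicates entered the model as a block, the SE of CTGF fell to 0.20 and CTGF was called, 1 of 4 tested members beside 0.0758% of all genes called up that way, 9 in number. With 1 array left out the fold change of CTGF ranged from 0.66 without -GFs replicate 2 to 1.56 without -GFs replicate 1.

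For CYR61 the probe ILMN_2794645 stood at 7.15 and 7.84 with BMP4 and at 7.10 and 7.01 in -GFs. The BMP4 arrays were both higher, but replicate 1 by only 0.05 and at a signal that was not detected, and the fitted difference of 0.44 (SE 0.25) came mainly from replicate 2. Of the other CYR61 probes, ILMN_2710253 was detected on both BMP4 arrays and on neither -GFs array, at least 1.10-fold higher, and ILMN_1235571 was detected on none of these 4 arrays, so no fold is given for it. WISP1 stood at 10.19 and 10.82 with BMP4 and at 10.04 and 10.36 in -GFs, groups that overlapped, with a difference of 0.31 (SE 0.24). WISP2 differed by 0.19 (SE 0.60), with 0.35 and 0.03 within the replicates. CYR61, from signals mostly not detected, and CTGF were 2 of 4 genes with both BMP4 arrays above both -GFs arrays, beside 11.2% of all genes, and all 4 were higher with BMP4 within both replicates, beside 27.9% of all genes.

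**Figure D2:**
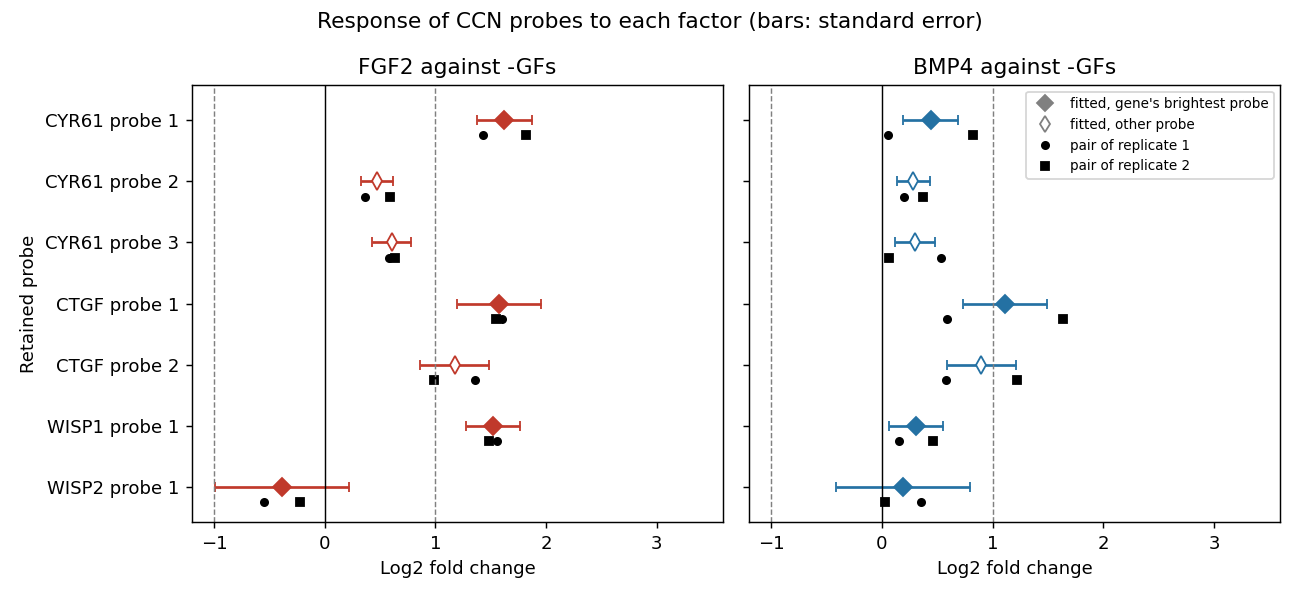
Log2 fold change of the 7 retained CCN probes (x axis) for FGF2 and BMP4 against -GFs, with diamonds and bars for the fitted value and its standard error, small black symbols for the difference within each replicate, and dashed lines at a log2 fold change of 1 in either direction. With FGF2 the brightest probes of CYR61, CTGF and WISP1 lie at 1.62, 1.57 and 1.52, and with BMP4 only CTGF (1.11) lies past the dashed line.

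Set directly against each other, the factors differed by more than 1 on the log2 scale for WISP1. For CYR61 they did so on 1 of its 3 probes. WISP1 was higher with FGF2 than with BMP4 by 1.22 on the log2 scale (SE 0.24), or 2.32-fold, with 1.40 and 1.03 within the replicates. The representing CYR61 probe, undetected on BMP4 replicate 1, was higher by a fitted 1.18 (SE 0.25), with 1.38 and 0.99. The other CYR61 probes gave 0.19 (ILMN_2710253) and 0.31 (ILMN_1235571, undetected with BMP4), and the mean of the probes gave 0.56 and no call. Both genes were called up, 2 of 4 tested beside 2.02% of all genes, but the count includes CYR61, which the FGF2 arrays alone admitted, and with detection asked on all 6 arrays it was 1, WISP1. The calls of both were lost without FGF2 replicate 1, without FGF2 replicate 2 or without BMP4 replicate 1, where CYR61 ranged from 0.84 to 1.53 and WISP1 from 0.90 to 1.53 over all arrays left out in turn.

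For CTGF the factors were not told apart. It stood at 10.91 and 9.96 with FGF2 and at 9.90 and 10.05 with BMP4, which overlap, with a difference of 0.46 (SE 0.38). The difference was 1.01 in the first replicate and -0.09 in the second. WISP2 was lower with FGF2 by a fitted -0.58 (SE 0.60), again with overlapping arrays, and by -0.90 and -0.25 within the replicates. In the order of group levels, WISP1 and the representing CYR61 probe thus had FGF2 above BMP4 and -GFs, and CTGF had FGF2 and BMP4 together above -GFs. For WISP2 the arrays of the groups overlapped, but within each replicate the order was BMP4, -GFs, FGF2, at 12.57, 12.22 and 11.67 in the first, while in the second BMP4 stood 0.03 above -GFs and FGF2 differed from -GFs by -0.22. With the replicate block the SE of its differences was 0.16 in place of 0.60, and WISP2 was still not called in any comparison, none of its differences reaching a log2 fold change of 1.

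CCN genes also differed between the replicates of one group, and by unequal amounts. WISP2 was lower in replicate 2 in every group, by -1.23 in -GFs, -0.90 with FGF2 and -1.55 with BMP4 on the log2 scale, which in linear terms is 2.34-fold, 1.86-fold and 2.92-fold. The same difference, regardless of sign, was smaller in 98.8%, 98.9% and 99.8% of all genes. The median absolute difference of all genes was 0.23, 0.17 and 0.22.

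CTGF was lower in replicate 2 by -0.90 in -GFs (larger than in 96.1% of genes) and by -0.95 with FGF2 (99.1%), but stood 0.15 higher with BMP4 (37.3%). WISP1 and CYR61 were near the bulk of genes in -GFs, at 0.32 and -0.08. Their widest gaps were in the BMP4 group, 0.63 for WISP1 (91.0%) and 0.69 for CYR61 (93.1%), both with replicate 2 higher. The replicates therefore parted the CCN genes, with WISP2 low in replicate 2 in all 3 groups and CTGF low in 2 of them. The cause of these replicate differences was not tested.

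**Figure D3:**
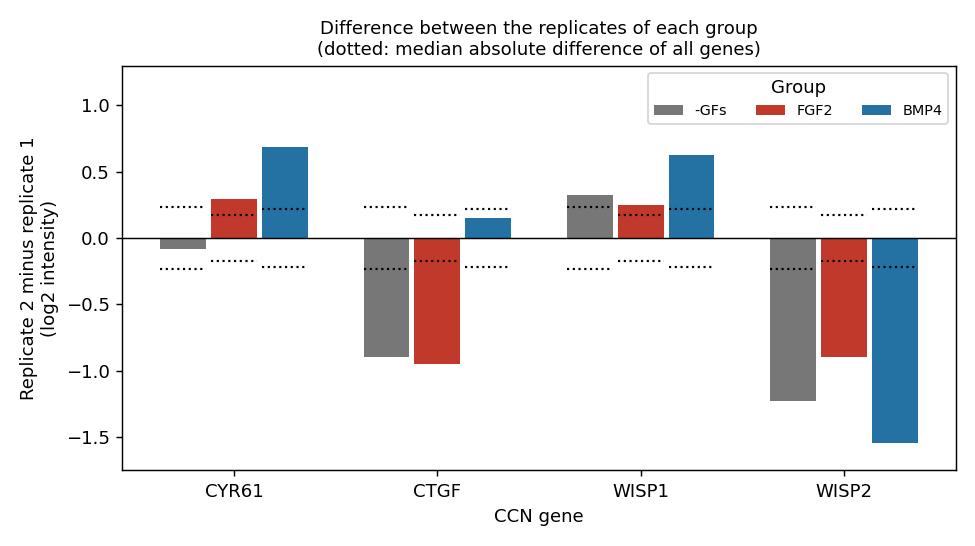
Difference between the 2 replicates of each group (y axis, log2 intensity of replicate 2 minus replicate 1) for the 4 tested CCN genes (x axis), with a bar per group and dotted lines at the median absolute difference of all genes in that group. WISP2 reaches -1.55 in the BMP4 group, against a median absolute difference of 0.22.

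For each tested CCN gene the genes with the most similar course over the 6 arrays were sought by the root mean square distance of log2 intensities after each gene's mean was subtracted. This is a description over 6 arrays that share groups and replicates. CYR61 and WISP1 were near each other, at 0.133 (r = 0.983), WISP1 being the closest of all genes to CYR61 and CYR61 the 5th closest to WISP1. The median distance of all genes was 0.753 from CYR61 and 0.727 from WISP1. The CYR61 course is that of its representing probe, detected on only 3 arrays, so the distance rests partly on signals not above background. The other CYR61 probes differed with FGF2 by only 0.47 and 0.61. With neqc the FGF2 difference was 3.14 for CYR61 and 1.64 for WISP1, and under median scaling it was 1.58 and 1.44. The distance was computed for 1 CYR61 probe and under the spline scaling only.

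The gene closest to WISP1 was SEMA7A, a membrane-anchored semaphorin, at 0.0874 (r = 0.993), and SEMA7A was also second for CYR61, at 0.136, though it was detected on only 3 arrays. The others near CYR61 were RRP15, SNAI1 and GNPTAB (0.147 to 0.177), and those near WISP1 were 1110007M04RIK, EEF1E1 and HEATR1 (0.111 to 0.128). CTGF had no gene as near. Its closest were STARD4, a cholesterol transfer protein, at 0.364 (r = 0.895), then ZFP608, UNC5B, C430002D13RIK and BXDC1 up to 0.402, of which UNC5B, a netrin receptor, stood 1.66 higher with FGF2 and 1.44 higher with BMP4. For WISP2 the nearest was CCNG1, cyclin G1, at 0.106 (r = 0.994), followed by GTL2, LOC640739, FCHO2 and a RIKEN transcript (0.172 to 0.180).

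The other genes known to respond to the regulators of CYR61 and CTGF were read from lists made with earlier results of these data known. Of 22 listed targets of YAP/TAZ with TEAD factors other than the CCN genes, 13 were tested. With FGF2 limma called 0 of 13 in either direction, beside 3.53% of all genes, and at an unadjusted p under 0.05 there were 2 up and 2 down, beside 23.3% of all genes in either direction. Their median log2 fold change was 0.06, beside -0.02 for all genes, and under median scaling it was -0.03, beside -0.10. The highest was GADD45A, a stress response gene, at 0.82 (SE 0.17, limma adjusted p = 0.041), short of the fold change asked for. The other GADD45A probe stood at 0.97, and under neqc 1 of the 13 targets was called up. The lowest was ANKRD1, a nuclear ankyrin repeat protein, at -0.50 (adjusted p = 0.132), whose other probe stood at 0.15. With BMP4 limma called 0 of 13, beside 0.00842% of all genes, with 0 up and 1 down at an unadjusted p under 0.05, beside 1.81%. The median was 0.02, or -0.06 under median scaling.

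Among the components of that pathway, VGLL4, which competes with YAP for TEAD factors, fell with FGF2, from 11.39 ± 0.27 to 10.24 ± 0.43 (SD, n = 2), a log2 fold change of -1.15 (SE 0.27, limma adjusted p = 0.0575). It was the 1 called gene of 12 tested, beside 1.25% of all genes called down, and was not called without -GFs replicate 2 or without either FGF2 array. Under neqc 1 of the 12 was called up and 2 down, beside 432 and 362 of all 11872 genes. VGLL3 differed by -0.87 (adjusted p = 0.0465) and was not called. TEAD4, a DNA-binding partner of YAP and TAZ, stood 0.91 higher with FGF2 than in -GFs (adjusted p = 0.0319), below the fold threshold and with 1 of the -GFs arrays undetected, and was called against BMP4, where it was undetected, at least 1.88-fold higher (fitted 1.03, adjusted p = 0.0261). TEAD4 was the 1 of 12 called up against BMP4, beside 2.02% of all genes. It passed the detection filter through the FGF2 arrays alone, and its other probe gave 0.55 against -GFs and 0.59 against BMP4. The call was lost without either FGF2 array or either BMP4 array, and under median scaling. WWTR1, which encodes TAZ, differed by 0.97 (adjusted p = 0.0729) on its brightest probe and by 0.05 on the other, and YAP1 by 0.02. With BMP4 limma called 0 of the 12, and 0 had an unadjusted p under 0.05, beside 0.00842% and 1.81% of all genes.

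Of the targets of SRF with its MRTF coactivators, 16 of 18 were tested. With FGF2 limma called 0 of them, beside 3.53% of all genes. Under neqc 1 was called up, as were 432 of all 11872 genes. At an unadjusted p under 0.05 there were 4 up and 1 down, beside the same 23.3% of all genes. SRF itself differed by 0.99 (adjusted p = 0.121), the actin-binding protein TAGLN2 by 0.98 (adjusted p = 0.016), the focal adhesion protein ZYX by 0.78 (adjusted p = 0.0294), and the actin crosslinker FLNA by -0.41 (adjusted p = 0.19). TAGLN2 was called up against BMP4 (1.19, adjusted p = 0.0105), 1 of 16 beside 2.02% of all genes. That call was lost without FGF2 replicate 1 or FGF2 replicate 2. With BMP4 limma called 0 of 16, and 0 had an unadjusted p under 0.05, beside 0.00842% and 1.81% of all genes.

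Targets of TGFβ and its SMAD proteins included genes that rose with FGF2. Of 18 tested, other than CTGF, 4 were called up and 0 down, beside 2.28% and 1.25% of all genes. BHLHB2 (Bhlhe40, a transcriptional repressor) rose by 2.49 (SE 0.21, adjusted p = 0.00459), JUNB (an AP-1 subunit) by 2.08 (SE 0.35, adjusted p = 0.0227), SNAI1 (a repressor of epithelial genes) by 1.52 (SE 0.18, adjusted p = 0.01) and the ligand gene TGFB1 by 1.14 (SE 0.20, adjusted p = 0.0258). JUNB was not called without either FGF2 array, and SNAI1 and TGFB1 not without FGF2 replicate 2, and a second SNAI1 probe differed by 0.71. The other 14 were not called, the lowest being PMEPA1 at -0.42 (adjusted p = 0.168), and 10 of the 18 had a fitted difference above 0. The median of the list was 0.14, or 0.03 under median scaling. In the same fit, 8 of 10 tested early genes of ERK signalling, listed as a check of FGF2, were called up, with a median of 2.86. What raised the 4 called targets was not tested. BHLHB2, JUNB and TGFB1 were also called up against BMP4, 3 of 18 beside 2.02% of all genes. JUNB was not called there without either FGF2 array or either BMP4 array, and TGFB1 not without FGF2 replicate 2. With BMP4 limma called 0 of 18, and 1 was up at an unadjusted p under 0.05, beside 0.00842% and 1.81% of all genes.

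Several BMP-SMAD targets gave the opposite order of the factors. With BMP4, 8 of 9 tested had a fitted difference above 0, beside 5981 of all 11872 genes. Their median was 0.94, beside 0.00 for all genes. MSX1 was among the 8 at only 0.04, and HEY1 differed from -GFs alike with BMP4 (0.83) and with FGF2 (0.88). ID1, an inhibitor of basic helix-loop-helix factors, was called (2.77, SE 0.16, adjusted p = 0.00945), though not when either -GFs array or BMP4 replicate 1 was left out. It was the 1 of 9 called, beside 0.00842% of all genes. With the replicate block ID2 (1.72), ID3 (2.10) and ATOH8 (1.52) were called as well, 4 of 9 with ID1, beside 0.0758% of all genes. A second ID2 probe stood at 0.48, and neqc with the block called 1 gene of all 11872. With FGF2 limma called 0 of 9, and 1 up and 2 down had an unadjusted p under 0.05, beside 3.53% and 23.3% of all genes. FGF2 against BMP4 gave 5 called down, namely ID1, ID2, ID3, ID4 and ATOH8, beside 1.04% of all genes. Of these, ID3 was not called without FGF2 replicate 1 or BMP4 replicate 2, ID4 not without either FGF2 array or BMP4 replicate 2, and ATOH8 not without FGF2 replicate 2. ID2 differed by -2.43 on its brightest probe and by -0.56 on the other.

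Among 13 tested receptors and binding partners of CCN proteins, ITGA5, the α5 subunit of the fibronectin receptor, rose with FGF2 from 10.30 ± 0.39 to 12.84 ± 0.29 (SD, n = 2), a log2 fold change of 2.54 (SE 0.23, adjusted p = 0.00547), with 2.43 on its other probe. FGFR2, a receptor of FGF ligands, fell by 1.29 (SE 0.17, adjusted p = 0.0114), and was not called without FGF2 replicate 1 or without FGF2 replicate 2, and its other probe differed by -0.84. Of the 13, 1 was thus called up and 1 down, beside 2.28% and 1.25% of all genes. The other 11 were not called, among them the integrin subunits ITGB1 (0.61) and ITGAV (0.34) and the proteoglycan SDC4 (0.07). The median of the 13 was 0.07, or -0.03 under median scaling. ITGA5 and FGFR2 were also called against BMP4, at 2.79 and -1.66, beside 2.02% of all genes called up and 1.04% called down. With BMP4 limma called 0 of the 13, and 0 had an unadjusted p under 0.05, beside 0.00842% and 1.81% of all genes.

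Of the IGFBP genes, which share the amino-terminal domain of the CCN proteins, 3 of 7 were tested. Under either factor 0 were called by limma and 0 had an unadjusted p under 0.05. The shares of all genes were 3.53% and 23.3% with FGF2 and 0.00842% and 1.81% with BMP4. Their log2 fold changes lay between -0.11 and 0.00 with FGF2 and between -0.55 and -0.11 with BMP4.

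**Figure D4:**
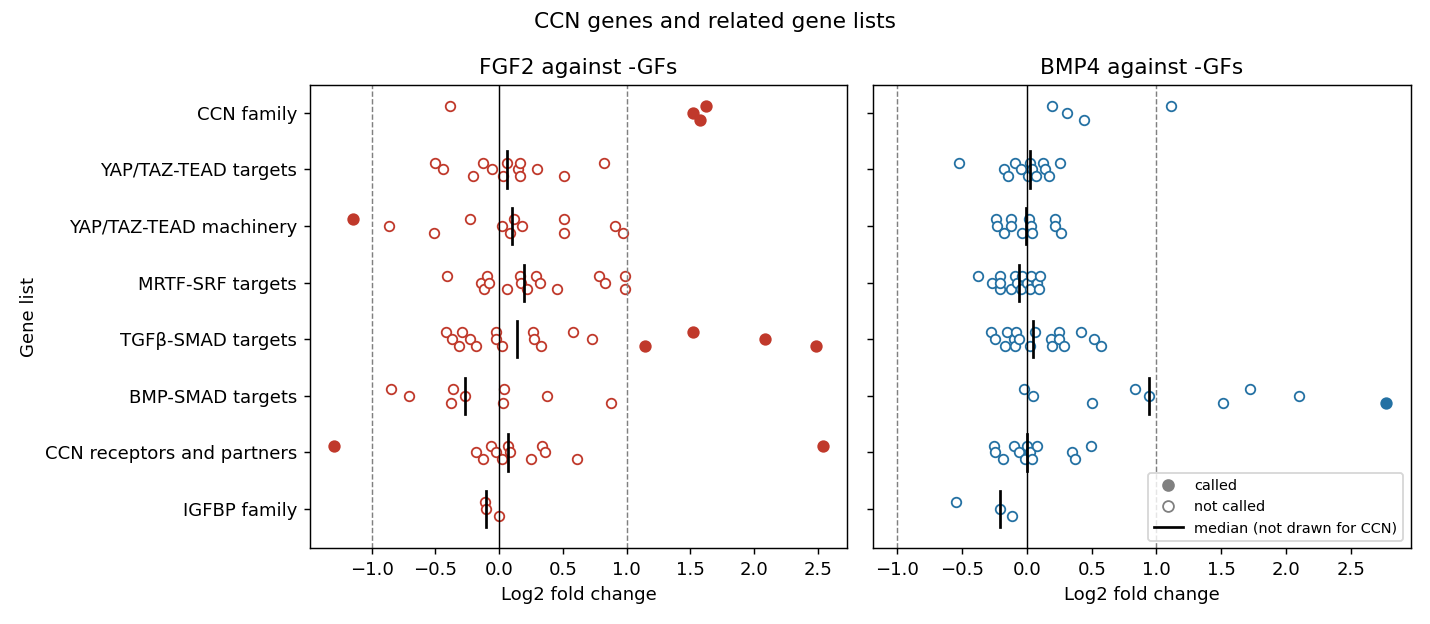
Log2 fold change with FGF2 and with BMP4 against -GFs (x axis) of each tested gene of the CCN family and of 7 related lists (y axis), with filled circles for called genes, open circles for genes not called, black bars for list medians, and dashed lines at a log2 fold change of 1 in either direction. With FGF2 the 3 called CCN genes lie at 1.52 to 1.62, in a family chosen with its signals known. Of the 13 other YAP/TAZ-TEAD targets 0 were called, beside 3.53% of all genes. With BMP4 the called gene is ID1 (2.77).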

How the data were processed

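Each of the 6 arrays was an Illumina MouseWG-6 v2.0 BeadChip. The authors deposited bead intensities on a linear scale, not normalized between arrays, with a detection p-value per probe. The labels name GenomeStudio 2011.01. Not used were 9 columns without a heading and 6 leftover lines. Cubic spline normalization was re-implemented in R 4.3.3 (452 quantiles per array), followed by log2. Each gene was represented by its retained probe with the largest mean, and limma 3.58.1 was fitted on all 6 arrays without a block. All adjusted p-values are limma's, over all genes, and set a difference between groups against the spread between these wells. Without a block that spread includes the difference between the replicates.

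The CCN genes and the gene lists were chosen with earlier results of these data known. Named beside them are list members called in any comparison, examples of a list's range and the 5 genes nearest each CCN gene. Arrays of the same replicate number were wells of the same biological replicate, per the labels, and their deviations from the group means correlated at 0.602, 0.741 and 0.579 over 11872 genes. The procedure was tested on simulated data. Alternatives were other normalizations, filters, probe rules and thresholds, the replicate block, and leaving out each array.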

Additional observations from a re-analysis of the deposited data

How the results depend on the processing

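With 2 arrays per group and residual degrees of freedom of 3, or 2 with the replicate block, single calls depend on single arrays. For FGF2 against -GFs the 419 genes called became 794 with neqc, 1401 without a fold threshold and 1143 with neqc and the block, an alternative chosen after seeing the data, and between 106 and 444 with 1 array left out. Median scaling gave 208 up and 209 down, where the spline gave 271 and 148. The CCN genes called were between 0 and 3 with 1 array left out. They were 2 under median scaling or an adjusted p under 0.05 (CTGF lost), and 2 with detection asked on all 6 arrays or with the mean of the probes (CYR61 lost). For BMP4 against -GFs the 1 gene called became 2 with detection on at least 1 array, with no filter, or with a trended and robust fit, 10 with the replicate block, 1 with neqc and the block, and between 0 and 2 with 1 array left out. The CCN genes called were 1 with the replicate block (CTGF), 0 with neqc and the block and 0 with any 1 array left out. For FGF2 against BMP4 the 364 genes called became 640 with neqc, 1076 without a fold threshold, 987 with neqc and the block, and between 93 and 387 with 1 array left out, and the 2 CCN genes became 1 with detection on all 6 arrays, 1 with the mean of the probes and between 0 and 2 with 1 array left out. The replicate block changed no other call of a CCN gene. Over 177 refits of the CCN fold changes no called value changed sign. Among them 8 moved by more than the replicate spread, all of CYR61, whose FGF2 value ran from 0.90 with the mean of the probes to 3.14 with neqc. Many refits returned the same value by design, such as those without an array of a group not compared. The detection filters also left each value as it was, and neqc with the block repeated the neqc values. These counts are therefore no measure of stability. The sign of the uncalled WISP2 differences, and of CTGF between the factors and WISP1 with BMP4, turned without some single array. The cause of these changes was not tested.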
